A study of Mus musculus with 6 samples.

Results

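The 9 genes described here encode the D-type cyclins (Ccnd1, Ccnd2 and Ccnd3), the kinases they activate (Cdk4 and Cdk6), inhibitors of these complexes (Cdkn1b, Cdkn2c and Cdkn2d) and the substrate that controls entry into S phase (Rb1). They were found among the 54446 genes of the count table by matching Ensembl gene IDs to these symbols in the Gencode mouse annotation, and all 9 held enough counts to be measured. The genes were chosen by their role and by the counts they show in these same 6 libraries, so every difference below is a description of the libraries and carries no test.

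RNA was sequenced from bone marrow-derived macrophages (BMDMs) of male BALB/c mice aged 6 to 8 weeks. Bone marrow cells had been grown for 7 days in medium with 20% L929-conditioned medium, a source of the macrophage growth factor CSF-1. Cells were left unpolarized (M0), or were polarized for 24 hours with IFN-γ at 20 ng/mL and LPS at 50 ng/mL (M1) or with IL4 at 20 ng/mL (M2). Each state was sampled as a control given DMSO and after regorafenib, an oral inhibitor of several kinases that include VEGF receptors, PDGF receptors, KIT and RAF, at 1 µM, from 1 hour before polarization in M1 and M2. How long M0 cells were kept in culture after the 7 days, and for how long they had the drug, is not given in the sources used here, so that time and stimulus cannot be told apart in comparisons with M0. There was 1 library for each of the 6 conditions, and the number of mice behind a library is not given in the sources used here. No difference therefore has a replicate check, and the 95% intervals below come from the counts of 1 pair of libraries and cover counting error only.

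D-type cyclins link growth factor signals to the cell cycle. They bind Cdk4 or Cdk6, and the active kinase phosphorylates the retinoblastoma protein Rb1, which then releases E2F transcription factors to switch on genes for DNA replication. Inhibitors of the Ink4 family, such as p18 (Cdkn2c) and p19 (Cdkn2d), bind the kinases themselves, while p27 (Cdkn1b) binds cyclin-kinase complexes. In macrophages, CSF-1 is the main signal for proliferation and induces cyclin D1, and IFN-γ and LPS stop the cells from dividing.

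The first 60 coding bases of the D cyclins are shown because all 3 begin with the motif by which these cyclins contact Rb1. Capitals mark the 5 codons of the LxCxE motif, which are codons 5 to 9 of Ccnd1 and codons 3 to 7 of Ccnd2 and Ccnd3. The sequences were read from Gencode M21 transcripts on GRCm38, at chr7:144939634-144939693 (minus strand) for Ccnd1, chr6:127150714-127150773 (minus strand) for Ccnd2 and chr17:47593655-47593714 (plus strand) for Ccnd3.
Ccnd1: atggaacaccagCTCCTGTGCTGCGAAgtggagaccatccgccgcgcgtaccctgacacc
Ccnd2: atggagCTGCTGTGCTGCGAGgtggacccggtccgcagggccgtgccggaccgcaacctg
Ccnd3: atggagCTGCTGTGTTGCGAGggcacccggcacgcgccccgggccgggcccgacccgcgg

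Across their whole coding sequences, Ccnd1 and Ccnd2 were 66.8% identical, Ccnd2 and Ccnd3 65.9%, and Ccnd1 and Ccnd3 62.7%. The longest stretch of identical bases between any pair of them was 20 bases, and none of their words of 100 bases was shared with another D cyclin. Words that Ccnd1 did share with another gene, 19.6% of them, lay in its overlap with LTO1, a gene on the opposite strand that held between 775 and 1361 counts in the 6 libraries. Cdk4 overlapped Tspan31 in the same way over 14.5% of its words, and the other members shared less than 10% or, for Cdkn1b, Cdkn2c and Cdkn2d, none. The libraries were made with a stranded kit, but which strand the counts were taken from is not given in the sources used here.

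The libraries held between 25359309 and 34898342 counts. The labels were set against marker genes. Nos2 (410649 and 221627 counts), Il12b and Il6 were high in the M1 libraries and between 1 and 50 counts elsewhere, and all 8 markers of the response to IFN-γ and LPS were at least 2-fold higher in M1 than in M0. Mrc1 (24237 counts in the M2 control) and Retnla were highest in the M2 libraries, and each of the 8 markers of the IL4 response exceeded its M0 level by 2-fold or more in M2. Of the 8 macrophage markers, Csf1r and Lyz2 were abundant in each library, whereas Mertk held 295 counts in the M2 control and Fcgr1 229 in M2 with regorafenib. Fcgr1 was lower with regorafenib in M0, M1 and M2 (−1.48, −1.23 and −1.25), and Mertk was higher in M0 and M2 (1.59 and 1.34). The 6 lymphocyte markers summed to between 0 and 3 counts per library and the 5 fibroblast markers to between 98 and 336, highest in M0 with regorafenib. Among 7 neutrophil and granulocyte precursor markers, Ly6g was at 0 in every library and Mpo held between 2064 and 5124 counts. S100a8 held 123 counts in the M0 control, 1804 in the M1 control, 489 in M1 with regorafenib and 39 to 91 elsewhere. Camp held 108 and 91 counts in M1 and at most 1 elsewhere, and Elane, Ltf and S100a9 held at most 11. The part of these cells in the results below was not tested. The 5 erythroid and mast cell markers summed to between 4 and 107 counts, highest in M1 with regorafenib, where Kit held all of them, and the 5 dendritic cell markers to 830 and 940 counts in M1, mostly from Ccr7, against 10 to 70 elsewhere.

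Levels below are CPM, counts scaled to a common library size, after correction with TMM, a method that compares libraries through the bulk of their genes. In the control libraries, the M1 library held almost no cyclin D1 RNA and more cyclin D2 RNA than M0, with less of Cdk4, Cdk6, p18 and p19 and more of p27. The M2 library held somewhat more cyclin D1 RNA than M0. Of the 9 genes, 5 were at least 2-fold lower in M1 than in M0 and 2 were at least 2-fold higher, where 20.1% of the 14917 genes tested were lower by that much and 17.4% higher. In M2 against M0, 2 of the 9 were lower (8.82% of all genes) and 0 were higher (5.23%). Relative to the median of 8 genes often used as references, such as Actb and Gapdh, 1 of the 9 was lower in M2 (7.64% of all genes) and 0 higher (5.98%), since Cdkn2d moved to −0.96. Both comparisons use the same M0 control library. The balance for M1 moved with the scaling, from 2598 genes higher and 3000 lower to 1895 and 4419 when libraries were scaled by their totals.

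**Figure D1:**
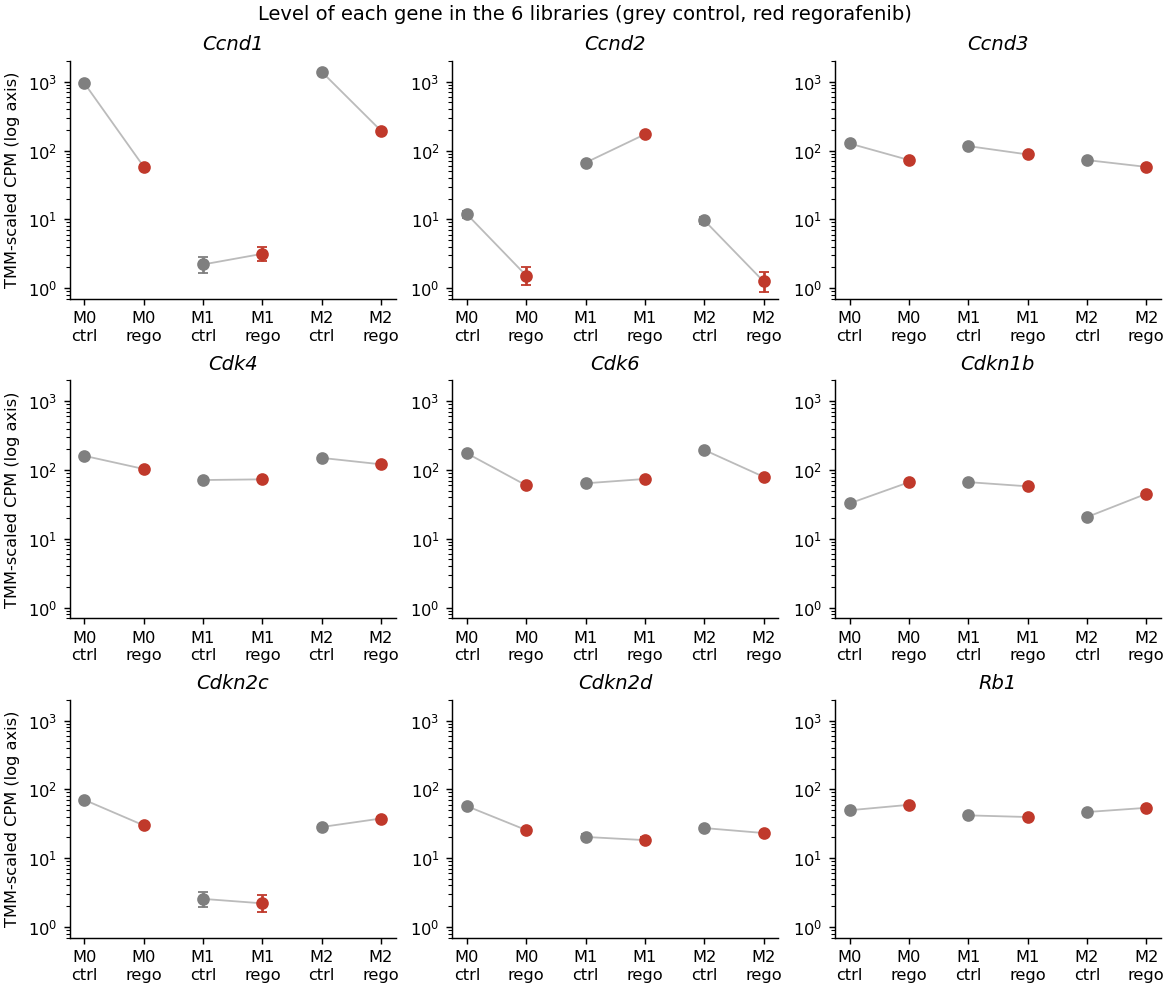
Level of each gene in the 6 libraries, as TMM-scaled CPM on a log axis, with grey points for control, red points for regorafenib and bars for 95% counting intervals (hidden where smaller than the point). Ccnd1 ran from 2.21 CPM in the M1 control to 1401 in the M2 control, whereas Rb1 stayed between 39.6 and 59.5.

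Ccnd1 (ENSMUSG00000070348.5, chromosome 7, 144929931 to 144939925, minus strand), which encodes cyclin D1, stood at 953 CPM in the M0 control, 2.21 in the M1 control and 1401 in the M2 control. With regorafenib the M0 library held 58.3 CPM, the M1 library 3.15 and the M2 library 194. The M1 libraries held 57 and 76 counts of Ccnd1 against 29262 in the M0 control, and no other library was below 1921 counts. In the controls the M1 level was 432-fold lower than that of M0 (log2 ratio −8.75, interval −9.16 to −8.38). The M2 control was 1.47-fold above M0 (0.56, interval 0.54 to 0.58). Over the 6 libraries Ccnd1 spanned 635-fold, the widest range of the 9 genes.

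Ccnd2 (ENSMUSG00000000184.12, chromosome 6, 127125162 to 127152193, minus strand) encodes cyclin D2. It held 11.8 CPM in the M0 control, 66.7 in the M1 control and 9.67 in the M2 control, and with regorafenib 1.52 in M0, 172 in M1 and 1.25 in M2. Both M1 libraries lay above the 4 others, where for Ccnd1 they lay below them. The M1 control was 5.64-fold above the M0 control (2.50, interval 2.33 to 2.66), while M2 differed from M0 by −0.29 (interval −0.51 to −0.07).

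Ccnd3 (ENSMUSG00000034165.16, chromosome 17, 47505051 to 47599691, plus strand), the cyclin D3 gene, varied least of the 3 cyclins. Its levels were 127 CPM in M0, 116 in M1 and 72.7 in M2 for the controls, and 72.8, 87.8 and 57.9 with regorafenib. The M1 control differed from M0 by −0.12 (interval −0.19 to −0.06), a difference whose sign depended on the scaling, since upper quartile scaling gave 0.01. The M2 control was 1.74-fold below M0 (−0.80, interval −0.87 to −0.73).

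The kinases spanned a narrower range than Ccnd1 and Ccnd2. Cdk4 (ENSMUSG00000006728.12, chromosome 10, 127063534 to 127067920, plus strand) held 160.4, 71.3 and 149.8 CPM in the M0, M1 and M2 controls, and 103, 73.0 and 121 with regorafenib. Cdk6 (ENSMUSG00000040274.11, chromosome 5, 3341485 to 3531008, plus strand) held 174, 63.9 and 195 CPM in the controls, and 59.6, 74.0 and 79.5 with regorafenib. For both genes the M1 control was below the other controls, by log2 ratios to M0 of −1.17 (interval −1.25 to −1.09) for Cdk4 and −1.45 (interval −1.53 to −1.37) for Cdk6. M2 was close to M0 for both (−0.10 and 0.16).

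The inhibitors did not move together. Cdkn1b (ENSMUSG00000003031.14, chromosome 6, 134920401 to 134925513, plus strand), the p27 gene, held 32.6 CPM in the M0 control, 66.5 in the M1 control and 20.6 in the M2 control. It was 2.04-fold higher in M1 than in M0 (1.03, interval 0.92 to 1.14), which fell to 0.59 when libraries were scaled by their totals, and lower in M2 (−0.66, interval −0.80 to −0.53).

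In the controls, Cdkn2c and Cdkn2d were highest in M0. Cdkn2c (ENSMUSG00000028551.14, chromosome 4, 109660876 to 109667189, minus strand), the p18 gene, held 70.3 CPM in the M0 control, 2.55 in the M1 control and 28.3 in the M2 control. The M1 control held 66 counts of it against 2158 in M0 (−4.78, interval −5.16 to −4.43), and M2 was 2.48-fold below M0 (−1.31, interval −1.42 to −1.20). Cdkn2d (ENSMUSG00000096472.2, chromosome 9, 21288410 to 21291407, minus strand), the p19 gene, held 56.9, 20.3 and 27.4 CPM, with ratios to M0 of −1.49 in M1 and −1.06 in M2 (interval −1.17 to −0.94). Rb1 (ENSMUSG00000022105.6, chromosome 14, 73183673 to 73325822, minus strand) held 49.6, 41.8 and 46.8 CPM, and its 6 libraries lay within 0.58 of each other on the log2 scale.

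**Figure D2:**
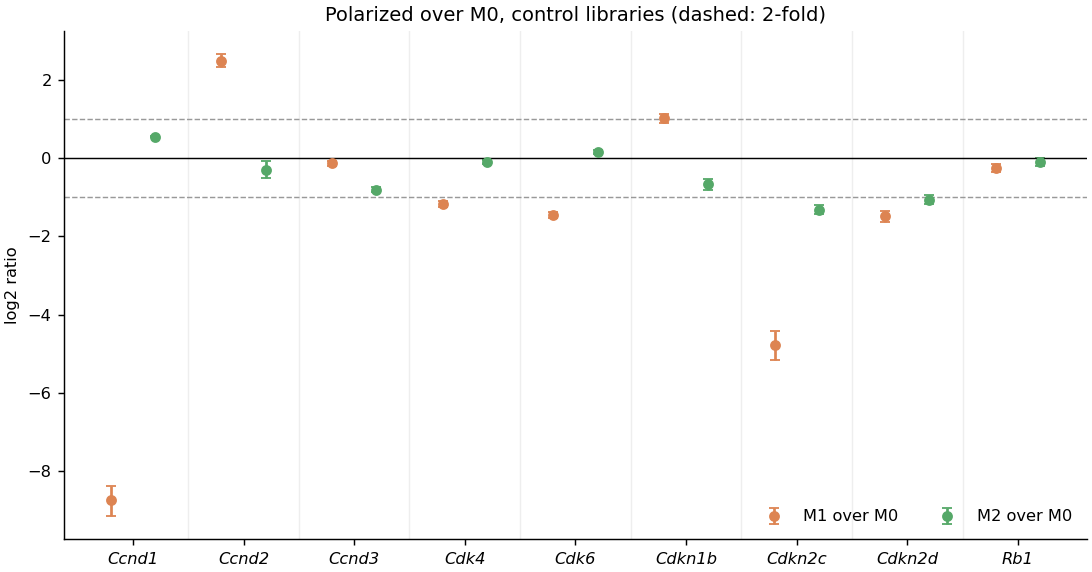
Log2 ratio of the polarized control library to the M0 control library for each gene, with 95% counting intervals as bars and dashed lines at 2-fold. In M1, Ccnd1 (−8.75) and Cdkn2c (−4.78) lay far below 0 and Ccnd2 (2.50) above it, while in M2 all 9 genes lay between −1.31 and 0.56.

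Genes that act beside the 9 also differed between states, most of them in M1. Against the M0 control, all 20 E2F target and replication genes were at least 2-fold lower in M1, with a median log2 ratio of −5.02 where the median of all genes tested was −0.05. Rrm2, a subunit of ribonucleotide reductase, went from 9616 to 27 counts (−8.23) and Pcna, the sliding clamp of DNA polymerases, from 14456 to 3175 (−1.94). In M2, 16 of the 20 were at least 2-fold below M0 (median −1.27, all genes 0.00), although Ccnd1 was above its M0 level there. Of the 10 other G1/S cyclins, kinases and phosphatases, 7 were at least 2-fold lower in M1 and 5 in M2, and 0 were higher in either state. Among the 12 other pocket proteins, E2F and DP factors, 8 were lower in M1 and 4 in M2. In bulk RNA such as this, fewer cells of a type and less RNA per cell cannot be told apart, so these values do not separate fewer dividing cells from less of each RNA in a dividing cell.

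The other CDK inhibitors went in both directions in M1. Cdkn1a, which encodes p21, held 15347 counts in the M0 control, 36594 in the M1 control (1.503) and 24983 in the M2 control (0.45). Cdkn2b, the p15 gene, held 24, 135 and 25 counts, and was the other one higher in M1 (2.74). Cdkn2a and Cdkn1c were at 69 counts or fewer in every library and lower in M1 (−3.86, interval −5.77 to −2.44, and −3.18, interval −4.86 to −1.87). The M1 control held only 4 and 5 counts of them.

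Regorafenib was associated with less cyclin D1, cyclin D2 and Cdk6 and more p27 in M0 and in M2, but not in M1, where cyclin D2 was higher. Of the 9 genes, 5 were at least 2-fold lower with regorafenib in M0 (Ccnd1, Ccnd2, Cdk6, Cdkn2c and Cdkn2d) and 1 was higher (Cdkn1b). Of all genes tested, 11.7% were lower by that much in M0 and 9.85% higher. In M2, 3 were lower (Ccnd1, Ccnd2 and Cdk6) and 1 was higher (Cdkn1b), where 5.81% of all genes were lower and 7.43% higher. In M1, 0 were lower and 1 was higher (Ccnd2), where 4.64% were lower and 3.3% higher. All 9 genes held at least 100 counts in some library, and among the 11313 genes that did, 9.86% were lower and 6.07% higher in M0, 3.48% and 4.25% in M2, and 1.71% and 1.2% in M1. For M0, M1 and M2 respectively, the median log2 ratio of the 9 genes was −1.16, −0.08 and −0.31, and that of all genes tested was −0.01, −0.02 and −0.01. The whole interval lay above 0 in one state and below 0 in another for 5 of the 9 genes and for 20.7% of all genes tested. Since the genes were chosen with these ratios known, the counts say nothing about how unusual they are.

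**Figure D3:**
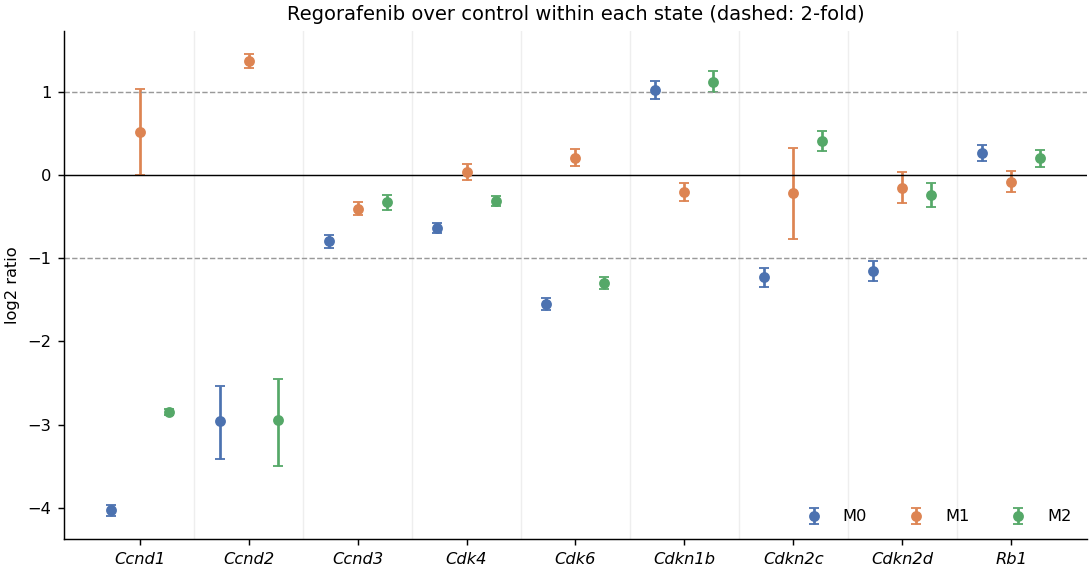
Log2 ratio of regorafenib to control for each gene in M0 (blue), M1 (orange) and M2 (green), with 95% counting intervals as bars and dashed lines at 2-fold. For Ccnd1, Ccnd2 and Cdk6 the M0 and M2 points lay below −1 and the M1 point above 0, and for Cdkn1b the M0 and M2 points lay just above 1 and the M1 point below 0.

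With regorafenib, Ccnd1 went from 29262 to 1921 counts in M0 and from 51132 to 5438 in M2. These are 16.3-fold (−4.03, interval −4.10 to −3.96) and 7.20-fold (−2.85, interval −2.89 to −2.81) differences. Ordered by ratio from the lowest of the 14917 genes, Ccnd1 was at rank 42 in M0 and rank 73 in M2. In M1, at 57 and 76 counts, its ratio was 0.52 with an interval from 0.0009 to 1.04, so only a difference between none and about 2-fold can be read there.

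Ccnd2 went from 363 to 50 counts in M0 (−2.96, interval −3.42 to −2.53) and from 353 to 35 in M2 (−2.95, interval −3.49 to −2.45). With 1 CPM added to both values these ratios were −2.35 and −2.24. In M1 it went the other way, from 1723 to 4155 counts, a 2.59-fold higher level (1.37, interval 1.29 to 1.45). The M1 regorafenib library thus held the highest level of Ccnd2 and the M2 regorafenib library the lowest, 138-fold apart. Ccnd3 was lower with regorafenib in each state, by less than 2-fold: −0.80 in M0, −0.40 in M1 and −0.33 in M2 (0.08 in M2 relative to the median of the reference genes).

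Cdk6 went from 5357 to 1965 counts in M0 (−1.55, interval −1.62 to −1.47) and from 7135 to 2224 in M2 (−1.30, interval −1.37 to −1.23). In M1 it held 1652 and 1783 counts (0.21, interval 0.11 to 0.31). The regorafenib libraries of M0 and M2 and both M1 libraries lay between 59.6 and 79.5 CPM, well below the M0 and M2 controls. Cdk4 was lower by less than 2-fold in M0 (−0.63, interval −0.70 to −0.57) and M2 (−0.31, interval −0.37 to −0.25), though not relative to the median of the reference genes (0.01 and 0.10), and in M1 its interval held 0 (0.03, interval −0.06 to 0.13).

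Cdkn1b went from 1002 to 2184 counts in M0 (1.02, interval 0.91 to 1.13) and from 752 to 1257 in M2 (1.13, interval 0.99 to 1.26). Both intervals reach below 1, so neither was wholly past 2-fold. In M1 it went from 1719 to 1393 counts (−0.20, interval −0.31 to −0.10). Its 2 lowest libraries were the M0 and M2 controls.

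The Ink4 genes differed between M0 and M2. In M0, Cdkn2c went from 2158 to 987 counts (−1.23, interval −1.34 to −1.12) and Cdkn2d from 1748 to 842 (−1.16, interval −1.28 to −1.04). In M2, Cdkn2c was higher with regorafenib (1034 and 1053 counts, 0.41, interval 0.29 to 0.54) and Cdkn2d was lower by less than 2-fold (999 and 648 counts, −0.24, interval −0.39 to −0.10), or higher (0.17) when taken relative to the median of the reference genes. In M1 both intervals held 0, with Cdkn2c at 66 and 53 counts. Rb1 was 1.20-fold higher in M0 (0.26) and 1.15-fold higher in M2 (0.20), and in M1 its interval held 0 (−0.08, interval −0.21 to 0.05). Rcbtb2, which overlaps Rb1 on the opposite strand, went from 3038 to 7078 counts in M0 and from 1597 to 2257 in M2. Lpar6, which also overlaps Rb1 on that strand, went from 806 to 2681 counts in M0 and from 445 to 775 in M2. Their part in the Rb1 counts was not tested.

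Per kilobase of exon, the D cyclins together made 218 CPM in the M0 control, 20.8 in the M1 control and 307 in the M2 control. With regorafenib they made 20.8, 29.0 and 48.0. The M0 regorafenib library and the M1 control library thus held nearly the same summed level, made of different cyclins, although with the length of the longest transcript the sums were 34.7 and 41.3. In the former, Ccnd1 made up 59.4% of the sum and Ccnd3 39.8%, while with the longest transcript Ccnd3 led with 54.4% against 44.9%. In the latter, Ccnd3 made up 63.7%, Ccnd2 34.1% and Ccnd1 2.25%. Ccnd1 held 92.8% of the sum in the M0 control, 97.0% in the M2 control and 86.0% in M2 with regorafenib, while Ccnd2 led in M1 with regorafenib at 63.2%.

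Set beside the inhibitors on the same scale per kilobase, the level of Cdkn1b was 0.0329 of the D cyclin sum in the M0 control and 0.0148 in the M2 control. With regorafenib it was 0.699 in M0 and 0.206 in M2, and in M1 it was 0.703 in the control and 0.438 with regorafenib. These ratios depend on the length used. With the longest transcript the level of Cdkn1b was the same and the D cyclin sum was higher in each library, so every ratio was lower. The near match of M0 with regorafenib and the M1 control was then lost, at 14.6 of Cdkn1b in both against sums of 34.7 and 41.3. The summed level of Cdk4 and Cdk6 changed less, from 61.8 to 36.1 in M0, from 26.5 to 27.8 in M1 and from 60.1 to 42.9 in M2. That of Cdkn2c and Cdkn2d went from 62.3 to 27.4 in M0, from 13.9 to 12.4 in M1 and from 27.9 to 28.7 in M2. Ordered by level per kilobase, Ccnd1 came first and Ccnd2 last in the M0 and M2 controls, and the order of neighbours was outside their counting intervals in M0. These intervals leave out the choice of length. With the longest transcript, Ccnd3 lay above Cdkn2c in the M0 control (32.8 against 28.4). It also lay above Cdkn2d in M0 with regorafenib (18.9 against 17.9) and in the M1 control (30.1 against 14.3). In both M1 libraries Cdk4 came first and Ccnd1 last, and the intervals of Ccnd3 and Cdkn2d overlapped in the control, as did those of Ccnd2 and Rb1. In M0 with regorafenib, Cdk4 came first (31.8), the intervals of Cdkn2d (16.2) and Cdkn1b (14.6) overlapped, and so did those of Ccnd1 (12.4) and Cdkn2c (11.1). Among the 3 regorafenib libraries, Ccnd1 and Cdkn2c also overlapped at the bottom of M1. Ccnd1 stayed first in M2 with regorafenib, at 41.3 against 37.2 for Cdk4, but with the length of the longest transcript Cdk4 led (58.8 against 52.0).

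The E2F target and replication genes were lower with regorafenib mainly in M0. All 20 were at least 2-fold lower there, between −3.18 for Cdc6, which loads the replicative helicase, and −1.60 for Cdt1, its partner. In M2, 0 of the 20 were past 2-fold, 17 were below 0, and the median was −0.28, with Cdc6 lowest (−0.64) and Mki67, a marker of dividing cells, highest (0.11). In M1 the median was 0.07 and 0 of 20 were past 2-fold, at levels that were already low in the control. Cyclin D1 was thus 7.20-fold lower with regorafenib in M2 in a pair of libraries whose replication genes differed by less than 2-fold. With regorafenib, all 20 were higher in M2 than in M0 (median 0.69, 2 of them past 2-fold), and Ccnd1 was 3.34-fold higher (1.74, interval 1.66 to 1.81). Ccnd1 was the only one of the 9 genes past 2-fold in that comparison, where 5.7% of all genes were higher by that much and 5.79% lower. Against M0, also with regorafenib, M1 held less Ccnd1 (−4.21, interval −4.56 to −3.88) and Cdkn2c (−3.77, interval −4.19 to −3.37) and more Ccnd2 (6.83, interval 6.43 to 7.26, or 6.11 with 1 CPM added to both values, since M0 held 50 counts). Thus 2 of the 9 genes were at least 2-fold lower there and 1 was higher, where 21.9% of all genes were lower and 16.9% higher (3261 and 2522 genes, or 4617 and 1850 with total counts), while Cdk4 (−0.50), Cdkn2d (−0.48) and Cdkn1b (−0.20) were within 2-fold. That count rested on the scaling, although the reference genes themselves ranged from −0.37 (Hprt) to 3.06 (Pgk1) in that comparison. Relative to the median of the reference genes, which was 0.65 in that comparison, Cdk4 (−1.16), Cdkn2d (−1.14) and Rb1 (−1.24) passed 2-fold as well, so that 5 of the 9 genes were lower and 1 higher, where 39.6% of all genes were lower and 10.5% higher.

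The other G1/S genes followed the same order of states. In M0, 6 of the 10 other cyclins, kinases and phosphatases were at least 2-fold lower with regorafenib (median −1.57), led by Ccne2, which encodes cyclin E2 (2096 to 288 counts, −2.97), while Mnat1 (0.21) was highest. In M1 and M2, 0 of the 10 were past 2-fold, with medians of 0.10 and −0.27. Of the 12 other pocket proteins, E2F and DP factors, 6 were lower in M0 (median −1.11), from E2f7 (−2.56) to Rbl2 (0.42), and 0 were past 2-fold in M1 (median 0.05) or M2 (median −0.16).

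Cdkn1a did not go with Cdkn1b. It went from 15347 to 4265 counts in M0 (−1.95) and from 24983 to 6268 in M2 (−1.61), and held 36594 and 31329 counts in M1 (−0.12). Of the 4 other CDK inhibitors, 2 were at least 2-fold lower in M0, 0 in M1 and 1 in M2, with medians of −0.96, 0.25 and −0.23. Among the 9 genes for the turnover of D cyclins and p27, 1 was at least 2-fold higher in M0, Fbxo31, a ubiquitin ligase subunit that targets cyclin D1 (468 to 1274 counts, 1.34). The 1 gene lower by that much was Cks1b, the cofactor of Skp2 in the degradation of p27 (1270 to 356 counts, −1.94). In M1 and M2, 0 of the 9 were past 2-fold, with Fbxo31 at 0.46 and 0.94, and the list's medians were 0.06 in M0, 0.01 in M1 and 0.03 in M2.

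**Figure D4:**
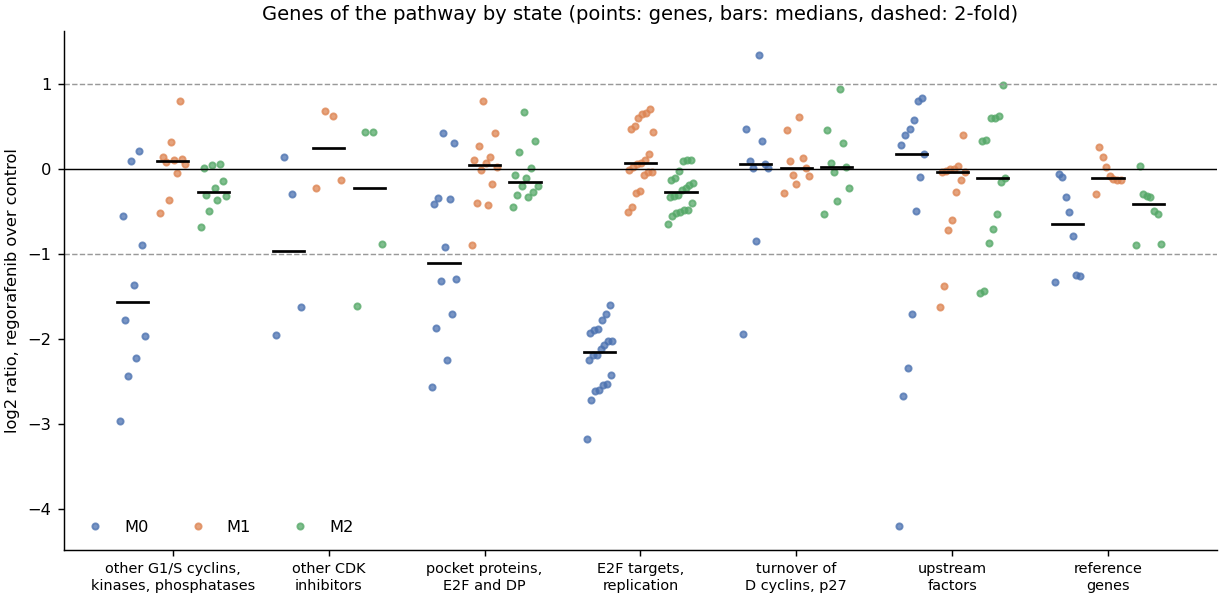
Log2 ratio of regorafenib to control for the genes of 6 pathway lists and of the reference genes, in M0 (blue), M1 (orange) and M2 (green), with a bar at each median and dashed lines at 2-fold. The E2F target and replication genes centre on −2.15 in M0, 0.07 in M1 and −0.28 in M2, and the reference genes on −0.65, −0.10 and −0.41.

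Of 13 transcription factors known to act on genes for D cyclins or CDK inhibitors, 4 were at least 2-fold lower with regorafenib in M0, 2 in M1 and 2 in M2, and 0 were higher. Of all genes tested, 11.7%, 4.64% and 5.81% were lower by that much, and 9.85%, 3.3% and 7.43% higher. The medians of the 13 were 0.17, −0.04 and −0.11, and 7 of them were above 0 in M0, 3 in M1 and 6 in M2. Fosl1, an AP-1 subunit, was lower in each state (M0, 120 to 7 counts, M1, 269 to 97 counts, M2, 67 to 19 counts). Ets2, a factor downstream of RAS signals, went from 5416 to 1146 counts in M0 (−2.34), from 7166 to 4427 in M1 (−0.59) and from 2774 to 772 in M2 (−1.46). Myc went from 1142 to 193 counts in M0 (−2.67), from 1786 to 841 in M2 (−0.70), and held 113 and 104 counts in M1. Foxo3, which activates Cdkn1b, was highest of the list in M0 (0.83) and stood at −0.13 in M1 and 0.32 in M2.

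Promoter windows of the 250 bases before a RefSeq gene start (GRCm38.p6) were given for 6 of the 9 genes, Ccnd3, Cdk4, Cdk6, Cdkn1b, Cdkn2c and Cdkn2d, in 8 windows. They were searched on both strands for motifs of factors that act on these genes. TGACG, the core of the cAMP response element TGACGTCA, stood once in the windows of Cdk4 and Cdk6 and in both windows of Ccnd3, and 17.8% of all 32851 windows of the table hold it. CACGTG, the E-box that Myc and related factors bind, was added after the sequences had been seen. It stood 4 times in the Cdk4 window and once in that of Cdk6, and 6.02% of all windows hold it. CACCC, a motif of KLF factors, was found in all but the Cdkn1b window, and 52.0% of all windows hold it. The whole element TGACGTCA (1.55% of all windows), the AP-1 motif TGANTCA (6.75%), the STAT motif TTCNNNGAA (7.02%) and the E2F motifs TTTGGCGC (0.417%) and TTTCCCGC (0.895%) were in none of the 8 windows. The Cdk4 window is printed without its last base, as 249 bases, for its E-boxes, in capitals, and that of Cdkn1b because it is the inhibitor that was higher in M0 and M2 and its window holds none of the 8 motifs. Their positions are chr10:127063285-127063533 and chr6:134920151-134920400, both on the plus strand.
Cdk4: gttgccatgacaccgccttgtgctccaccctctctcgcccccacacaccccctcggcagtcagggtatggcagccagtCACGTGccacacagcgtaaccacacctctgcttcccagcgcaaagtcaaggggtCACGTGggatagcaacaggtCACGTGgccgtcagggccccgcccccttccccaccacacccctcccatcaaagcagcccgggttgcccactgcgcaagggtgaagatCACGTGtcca
Cdkn1b: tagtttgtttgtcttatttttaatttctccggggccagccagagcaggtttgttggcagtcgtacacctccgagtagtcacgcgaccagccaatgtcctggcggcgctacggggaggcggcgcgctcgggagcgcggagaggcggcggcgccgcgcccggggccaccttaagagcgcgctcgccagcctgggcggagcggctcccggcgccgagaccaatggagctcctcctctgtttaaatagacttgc

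The genes whose levels went most like each member were ranked by the root mean square difference of log2(CPM + 1) over the 6 libraries, after centring, among 11312 genes with at least 100 counts in some library. For Cdkn2c these were Ncapg2, Ncaph and Kif22, at differences of 0.17 to 0.18. The first pair encode condensin subunits and the last a kinesin, and all 3 act in mitosis. For Cdk6 they were Trmt61a (0.06), Srm (0.09), which encodes spermidine synthase, and Zfp365 (0.11). For Cdk4 they were Creb3l1, Smyd4 and Taf4b (0.04 to 0.07), for Ccnd3 Bag2, Ifi207 and Lmln (0.08 to 0.11), and for Cdkn2d Zc3hav1l, Enkd1 and Clec5a (0.10 to 0.11). Nearest to Cdkn1b were Rasa4 (0.13), Gm4673 (0.16) and Btg2 (0.16), an antiproliferative gene. For Ccnd2 the chemokine gene Ccl4 came first (0.26), at 1644 (M0 control), 227 (M0 regorafenib), 8730 (M1 control), 12631 (M1 regorafenib), 1274 (M2 control) and 205 (M2 regorafenib) counts, and Oasl1 (0.58) and Gm34643 (0.60) followed. Ccnd1 had no close neighbour, as Cspg4 (0.84), Fam198b (1.03) and Rrm2 (1.14) were the nearest.

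Genes often used as references moved with regorafenib as well. In M0 all 8 of them were below 0 (median −0.65, 3 past 2-fold), with Actb at −1.26, Gapdh at −1.25 and Pgk1 at −1.33, while Tbp was at −0.10. In M2, 7 of 8 were below 0 (median −0.41, 0 past 2-fold), and in M1 the median was −0.10. Their part in the differences of the 9 genes was not tested. Ratios relative to the median of the reference genes, a scaling chosen after the data were seen, left Ccnd1 (−3.38 in M0, −2.44 in M2), Ccnd2 (−2.31, −2.54) and Cdkn1b (1.67, 1.53) past 2-fold. On that scale Cdk6 (−0.90, −0.89) was within 2-fold in both states, as were Cdkn2c (−0.58) and Cdkn2d (−0.51) in M0, so that 2 of the 9 genes were at least 2-fold lower in M0 in place of 5, and 2 in M2 in place of 3. Of all genes, 5.46% were lower by that much on this scale in M0 and 3.16% in M2, and 29.1% and 14.2% were higher, where Cdkn1b was the 1 of the 9 genes that was. Cdk4, lower with TMM, was at 0.01 in M0 and 0.10 in M2, and Ccnd3 (0.08) and Cdkn2d (0.17) in M2 also changed sign.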

How the data were processed

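RNA of 6 mouse BMDM libraries, 1 per condition, was compared. By the labels and methods of the study, libraries came from a stranded mRNA kit, reads were trimmed with cutadapt (2.4) and mapped to GRCm38 with STAR (2.7.2a), which also counted them per gene, the versions being from the submitters' processing notes. The authors deposited raw counts per gene, with no normalization, and 25359309 to 34898342 counts per library. Of the gene IDs, 53229 matched the annotation with their version and 1180 without it.

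Counts were scaled with TMM (edgeR 4.0.16, R 4.3.3), with factors from 0.820 to 1.12. Ratios replaced a zero count by 0.5, and their 95% intervals are conditional exact binomial intervals. These were tried on simulated counts that held counting error only, which says nothing about variation between replicates. Genes tested held at least 10 counts in 1 or more libraries. Past 2-fold means an absolute log2 ratio of at least 1. A gene at 3 or fewer counts was taken as at the floor. Levels per kilobase use the union of exons. Tables were handled in pandas 2.3.3 and biopython 1.88 under Python 3.11.15, with scipy 1.17.1 for the intervals.

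No test was run, since each condition has 1 library and the genes were chosen with these values known, and NOISeq, which the study names for data without replicates, was not used because it simulates replicates. The 9 genes, the 6 pathway lists, the reference genes and the 8 marker lists were chosen with earlier results of these data known. Named genes are the 9, the extremes of a list among genes with at least 100 counts, genes needed to say what the 9 do, the 3 nearest patterns of each of the 9 that ranged over more than 2-fold, and overlapping genes. Proteins were not analysed here. Alternatives were scaling by total counts, by DESeq2 (1.42.0) size factors or by the upper quartile, 1 CPM added, a stricter call, other count minimums, the longest transcript and, added after the data were seen, ratios relative to the median of the reference genes. One marker gene is not reported here.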

Additional observations from a re-analysis of the deposited data

Results flagged for a closer look

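The ratio of regorafenib to control lay above 0 in one state and below 0 in another for 5 of the 9 genes, with both intervals away from 0, as it did for 20.7% of all genes tested, though that of Ccnd1 in M1 began at 0.0009. With 1 library per condition, none of these differences was tested. For Ccnd1 the log2 ratio in M1 was 4.55 above that in M0, and for Ccnd2 it was 4.33 above. For Cdk6 the ratio in M1 was 1.76 above that in M0. For Cdkn1b the ratio in M2 was 1.33 above that in M1. For Cdkn2c the ratio in M2 was 1.64 above that in M0.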

How the results depend on the processing

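Of the 63 log2 ratios of the 9 genes, 3 changed sign with total count, DESeq2 or upper quartile scaling and 2 changed their side of 2-fold. The sign changes were those of Ccnd3 in M1 against M0, in control (−0.12, from −0.57 to 0.01) and regorafenib (0.27, from −0.14 to 0.34), and of Cdk6 in M1 against M0 with regorafenib (0.31, from −0.10 to 0.38). The side of 2-fold changed for Cdkn1b in M1 against M0 control (1.03, from 0.59 to 1.16) and Rb1 in M1 against M0 with regorafenib (−0.59, from −1.002 to −0.52). Scaling by total counts lowered the median of all genes in M1 against M0 by 0.44 in control and by 0.41 with regorafenib, and upper quartile scaling raised it by 0.14 in control. With total counts, 1 of the 9 genes was 2-fold higher in M1 than in M0 control in place of 2. Calling only genes whose whole counting interval was past 2-fold gave 0 of the 9 higher with regorafenib in M0 and 0 in M2 (1 each before). Of the 14917 genes tested, that call gave 525 higher in M0 and 301 in M2. It gave 1 of the 9 higher in M1 against M0 control (1797 of all genes) and 1 lower in M2 against M0 control (481 of all genes). With the longest transcript, the share of Ccnd1 among D cyclins was 88.0% (M0 control), 44.9% (M0 regorafenib), 1.43% (M1 control), 1.66% (M1 regorafenib), 94.8% (M2 control) and 77.4% (M2 regorafenib). Relative to the median of the reference genes, an alternative chosen after the data were seen, 2 of the 9 genes were lower with regorafenib in M0 in place of 5. On that scale 5 were lower in M1 than in M0 with regorafenib in place of 2, where the reference genes ranged from −0.37 to 3.06. In M2 against M0 control, 1 was lower in place of 2. The other counts of members in the 7 comparisons stayed within 1.5 times of their values under these alternatives. The number of all genes past 2-fold moved more: in M0, from 1752 lower and 1469 higher to 1115 and 687 with at least 100 counts, to 933 and 525 with the whole interval past 2-fold, and to 4087 and 2601 with no filter. With at least 100 counts, 692 lower and 493 higher in M1 became 194 and 136, and 866 and 1109 in M2 became 394 and 481. Depth limits Ccnd1 and Cdkn2c in M1, at 53 to 76 counts, and Ccnd2 with regorafenib in M0 and M2, at 50 and 35. No paired analysis was possible because each condition has 1 library, so that no replicate numbers pair libraries. A fit of regorafenib with the state as a block, which would take differences between states as its error, was not run.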

Other observations

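Bcl6, a transcriptional repressor that acts on Ccnd2, was the lowest of the 13 upstream factors with regorafenib in M1, the state in which Ccnd2 was higher. It held 2030 counts in the M1 control and 614 with regorafenib (−1.62). The pair of libraries held 2391 and 2405 counts in M0 (−0.09), and 3278 and 2267 in M2 (−0.15), the states in which Ccnd2 was lower. Between the M0 and M1 controls, which held 2391 and 2030 counts of Bcl6 before scaling, Ccnd2 was 5.64-fold higher in M1. With regorafenib, Bcl6 was lower in M1 than in M0 (−1.52) and Ccnd2 was higher (6.83). Whether the genes are linked was not tested.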
